A study of Mus musculus with 28 samples.

Results

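The 2 libraries described here are contact profiles of the Gata6 promoter in anterior neural progenitor cells (AntNPC) at day 5 of differentiation, from a cell line with the TFBS+CGI insert and from a cell line with the TFBS insert. They were chosen by their sample titles, out of 28 samples in the series, of which 13 had a processed file here and 4 are used below, so that the lines compared differ by the CpG island (CGI) of the insert. Both lines derive from E14Tg2a, a mouse embryonic stem cell line, and both carry part of the poised enhancer of Sox1 (PESox1) knocked in within the topologically associating domain of Gata6. One insert holds the transcription factor binding sites (TFBS) of that enhancer alone, and the other holds the TFBS together with its neighbouring CGI. Per the labels' protocols, cells of both lines were differentiated in N2B27 medium, with bFGF present for the first 3 days and the WNT inhibitor Xav939 added from day 2 to day 5. The site of the insert within the domain, and whether each line is a single clone, are not stated in the labels used here. A library without insert (wild type, WT) and a library with the CGI insert alone, both of the same viewpoint and cell state, served as a background.

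4C-seq (circular chromosome conformation capture with sequencing) reads out what lies close to 1 chosen fragment, the viewpoint: chromatin is crosslinked, cut and religated, and every fragment joined to the viewpoint is amplified by inverse PCR and sequenced. Contacts normally thin out with distance and stay largely within a domain, so a profile is read as the share of contacts at each distance and on each side. Poised enhancers are elements of developmental genes held inactive in pluripotent cells, often in contact with their promoters and flanked by CpG islands far from any start site. Gata6 encodes a transcription factor of primitive endoderm, heart and gut, and Sox1 one of the early neural plate.

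The fragment with most reads in both libraries was the same, at chr18:11053305-11053963 (mm10), 659 bases long and inside the annotated span of Gata6, with its centre 1.124 kb past the first base of the gene. The TFBS+CGI library held 7429563 reads in all and the TFBS library 3000576, and the viewpoint fragment alone took 91.0% and 79.3% of them. The WT and CGI libraries lay at 90.7% and 78.1%. Measurements below use local reads, those within 1 Mb of the viewpoint with 10 kb on each side left out, and positions are signed distances from the viewpoint's centre, negative to the left (lower coordinates). The TFBS+CGI library had 156021 local reads, 2.10% of its total, and the TFBS library had 193257, 6.44% of its total. The library with 2.48 times the total reads thus held fewer local reads. Each insert was profiled once, so there is no replicate error to set a difference against, and inserts were compared by size of difference with no test. Bracketed ranges are 95% intervals for counting error only. PCR copies of 1 ligation cannot be told from separate ligations in such reads, so the ranges are narrower than the experimental error.

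The profile of the TFBS+CGI library rested on far fewer fragments. Its local reads fell on 1393 fragments and those of the TFBS library on 2233, and the median fragment carried 3 reads in the first and 47 in the second. The 100 tallest fragments held 46.1% of local reads in the TFBS+CGI library and 25.5% in the TFBS library, and the 114 tallest fragments of the first held as large a share of its reads (at least 50%) as the 302 tallest of the second. Drawing 156021 reads at random from the TFBS library, to match the depth of the other, left an expected 2184.25 fragments, 1.57 times as many as the TFBS+CGI library had. Counting only fragments with at least 5 reads widened the gap to 2.83 times, 1773.8 against 626. The difference in fragment number was thus present at equal numbers of local reads. The WT library, with 1090 local fragments and a median of 3 reads, and the CGI library, with 857 and a median of 19, both lay below the TFBS library at the 67564 reads that all 4 libraries reach, where the expected fragment numbers were 1074.41 for TFBS+CGI, 2010.55 for TFBS, 928.39 for WT and 857 for CGI.

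**Figure D1:**
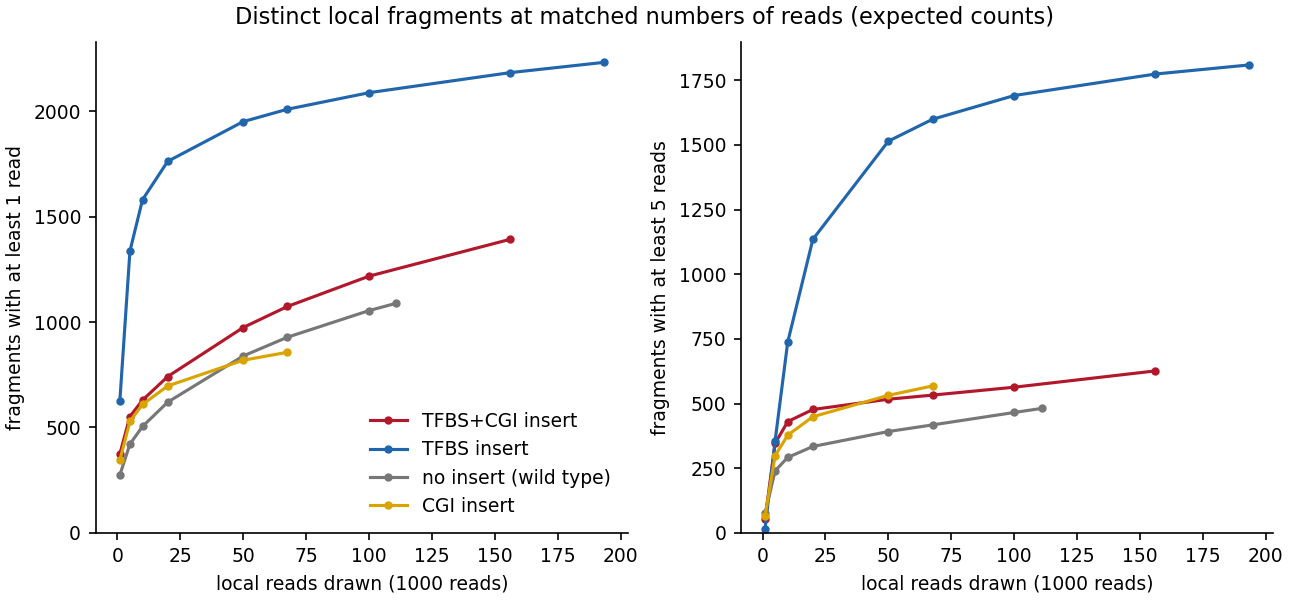
Expected number of distinct local fragments (y axes; left panel at least 1 read, right panel at least 5 reads) against the number of local reads drawn, in units of 1000 (x axes) for the 4 Gata6 promoter libraries, 1 library each. The TFBS library lies above the other 3 from 5000 reads on, and at 156021 reads it holds 2184.25 fragments against 1393 in the TFBS+CGI library.

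Fragments with at least 10 reads (well-read fragments) carried 98.8% of local reads in the TFBS+CGI library and 99.2% in the TFBS library, and they numbered 535 and 1680, or 31.8 in the first per 100 in the second. The overlap of the well-read fragments was largest close to the viewpoint and became smaller with distance. From 10 to 50 kb, 85.5% of the well-read fragments of the TFBS+CGI library were well read in the TFBS library too, and 36.0% of those of the TFBS library in the other. From 50 to 100 kb the shares were 63.6% and 29.0%, and from 200 to 400 kb 44.2% and 12.7%. From 700 to 1000 kb they were 15.6% and 3.42%. Over the whole range 287 fragments were well read in both, 53.6% of those of the TFBS+CGI library and 17.1% of those of the TFBS library. Of the 858 TFBS+CGI fragments with 1 to 9 reads, 45.3% were well read in the TFBS library. Whether reads passed between the libraries was not tested. In reads beyond 200 kb, fragments well read in both carried 38.0% of the TFBS+CGI signal and 11.7% of the TFBS signal, and fragments with any read in both carried 64.9% and 35.4%.

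The balance between the sides differed. Left of the viewpoint lay 48.2% (48.0 to 48.5) of local reads in the TFBS+CGI library and 40.4% (40.2 to 40.6) in the TFBS library, a difference of 7.83 percentage points (7.50 to 8.16). The WT library lay at 49.2% and the CGI library at 40.2%. By reads, the TFBS+CGI library was thus near WT and the TFBS library near CGI, as they were in the share of reads on the viewpoint fragment. Among the other 5 pairs of these 4 libraries, 3 differed by as much or more, TFBS+CGI from CGI by 8.01 points, WT from CGI by 8.99 points and TFBS from WT by -8.81 points. For the sides as a whole, the difference lay more in the number of fragments than in their mean reads. Of well-read fragments, 256 of 535 were on the left in the TFBS+CGI library (47.9%) and 692 of 1680 in the TFBS library (41.2%). That was a difference of 6.66 points, with a wider interval over fragments (1.83 to 11.5). In WT and CGI, 44.9% and 42.6% of well-read fragments were on the left. Of all local fragments, 47.1% were on the left in TFBS+CGI, 41.8% in TFBS, 42.5% in WT and 44.9% in CGI. By that last count WT was nearer to TFBS. Mean reads per well-read fragment were 291 left and 286 right in the TFBS+CGI library, and 112 left and 116 right in the TFBS library. On the 287 fragments well read in both libraries the left side held 37.8% and 37.5% of the reads on those fragments, a difference of 0.31 points. Those fragments are the same in both libraries, so a difference in fragment number cannot show on them.

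Signal was also nearer to the promoter in the TFBS+CGI library, with most of the difference on the right side. From 10 to 100 kb lay 44.9% of its local reads and 36.8% of those of the TFBS library, a difference of 8.08 points (7.75 to 8.41). From 100 to 1000 kb on the right lay 25.8% and 40.1%, a difference of -14.3 points, while the same distances on the left held 29.3% and 23.1%. The median distance of a local read on the right was 99.96 kb in the TFBS+CGI library and 200.2 kb in the TFBS library, and on the left 143 and 149 kb. The medians on the right were 242 kb in WT and 276 kb in CGI, so the TFBS+CGI library was the nearest of the 4 on that side. The slope of log reads per kb on log distance was -1.28 in the TFBS+CGI library and -1.11 in the TFBS library.

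Step by step, the right side turned from higher to lower near 100 kb. The TFBS+CGI library held 15.5% of its local reads from 10 to 50 kb on the right against 12.9% in the TFBS library, and 10.4% against 6.60% from 50 to 100 kb. The difference of 3.80 points from 50 to 100 kb was 2.06 without the tallest TFBS+CGI fragment, which lies in that step. Counting fragments in place of reads it was 0.953 points. From 100 to 200 kb it held 4.78% against 10.3%, a log2 ratio of shares of -1.10 (-1.14 to -1.07). From 200 to 400 kb the shares were 13.9% and 16.3%, although within that step the part from 200 to 250 kb was higher, 3.54% against 3.04%. From 400 to 700 kb they were 5.19% and 10.6%, a log2 ratio of -1.02. The left side held more in the TFBS+CGI library from 50 to 100 kb (8.10% against 5.84%), from 100 to 200 kb (11.8% against 8.54%) and from 200 to 400 kb (10.1% against 7.95%), and less from 10 to 50 kb (10.9% against 11.5%). In the 100 to 200 kb step on the right the WT library held 4.41% and the CGI library 6.98%, so the TFBS library was the highest of the 4.

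On the right, counts of well-read fragments followed the same steps. There were 48.1 of them in the TFBS+CGI library per 100 in the TFBS library from 10 to 100 kb on the right, and 22.2 per 100 from 100 to 1000 kb on the right, against 31.8 per 100 overall. On the left the numbers were 39.0 and 36.0 per 100, and single steps there went against the reads. From 10 to 50 kb the TFBS+CGI library had the larger share of well-read fragments (8.79% against 7.86%) with the smaller share of reads. From 700 to 1000 kb it had the smaller share of fragments (2.99% against 4.11%) with the larger share of reads (3.55% against 2.81%). The intervals of both fragment differences included 0 (-1.60 to 3.88 and -2.67 to 0.88 points). The share of well-read fragments that lay from 100 to 1000 kb on the right was 31.4% of 535 and 45.1% of 1680. The difference was -13.7 points (-18.1 to -8.96). The 287 fragments well read in both were a choice made after the data were seen. They are the same in both libraries, so a difference in fragment number cannot show on them. In shares of the reads on those fragments, the 10 to 100 kb difference was -4.82 points. That from 100 to 1000 kb on the right was 1.13 points, and the difference of slopes was 0.086 in place of -0.17. The difference from 50 to 100 kb on the right was 3.00 points, against 3.80 on all local reads. The tallest TFBS+CGI fragment, with 2970 reads against 332, is among the 287 and lies in that step. The 3.00 points were not recomputed without that fragment. From 50 to 250 kb on the left the difference was 1.54 points against 7.69. These 287 fragments hold 59.3% of local reads in the TFBS+CGI library and 25.7% in the TFBS library.

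**Figure D2:**
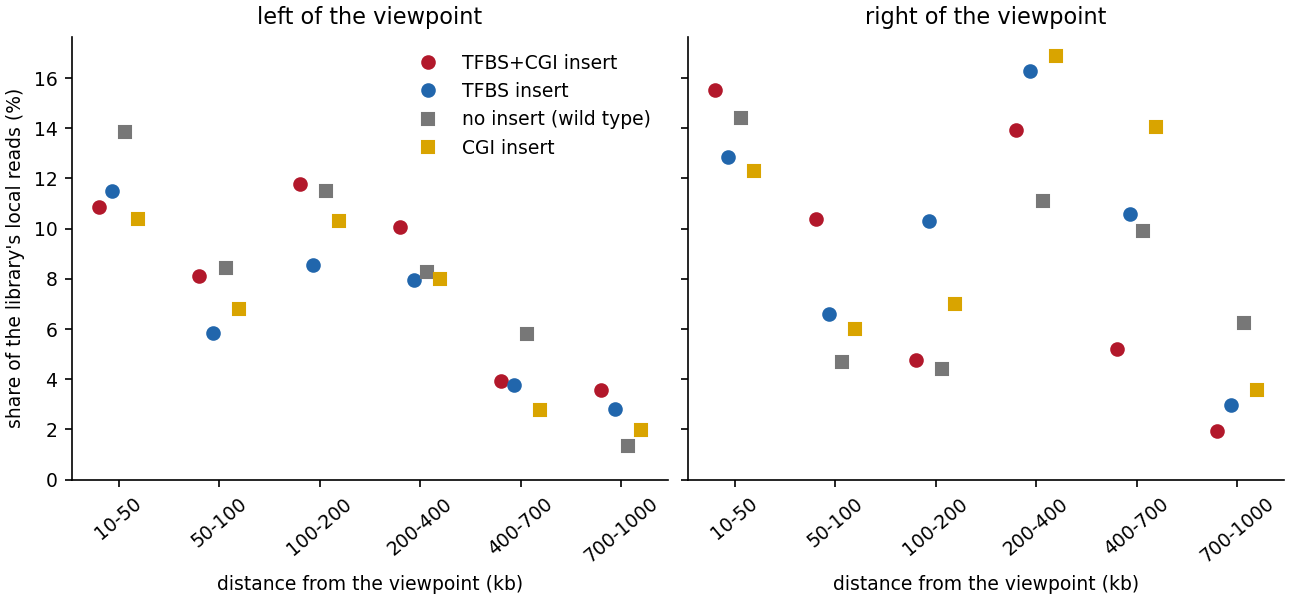
Share of each library's local reads in percent (y axis) by distance from the viewpoint in kb (x axis), left and right of it, for the TFBS+CGI and TFBS inserts (circles) and for WT and the CGI insert (squares), 1 library each and no error bars. From 100 to 200 kb on the right the TFBS library lies at 10.3% and the TFBS+CGI library at 4.78%, and from 50 to 100 kb on the right the TFBS+CGI library is the highest of the 4 at 10.4%.

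In windows of 50 kb the 2 profiles ranked alike, with a Spearman correlation across the 40 windows of 0.84 (0.71 to 0.83 for the other 5 pairs). The windows share the decay with distance in every library, and this correlation is a description. A window was called where the log2 ratio of shares, TFBS+CGI over TFBS, was past 1 either way (2-fold) and both libraries together had at least 100 reads there. On that rule 2 of 40 windows (5%) were higher and 9 (22.5%) lower in the TFBS+CGI library. In either direction 27.5% of windows were 2-fold apart, where the other 5 pairs ran from 22.5% to 50%. On the right 0 of 20 (0%) were higher and 7 (35%) lower, and on the left 2 were higher (10%) and 2 lower (10%). To any degree, 16 of the 20 right windows were lower (80%) and 11 of the 20 left windows higher (55%). The longest runs of windows of 1 sign, whose bounds were set by that sign, were 13 lower windows from 250 to 900 kb on the right and 4 higher windows from -250 to -50 kb on the left. The first held 16.8% of local reads against 26.1% on 329 fragments against 678, and the second 25.9% against 18.2% on 320 fragments against 417.

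**Figure D3:**
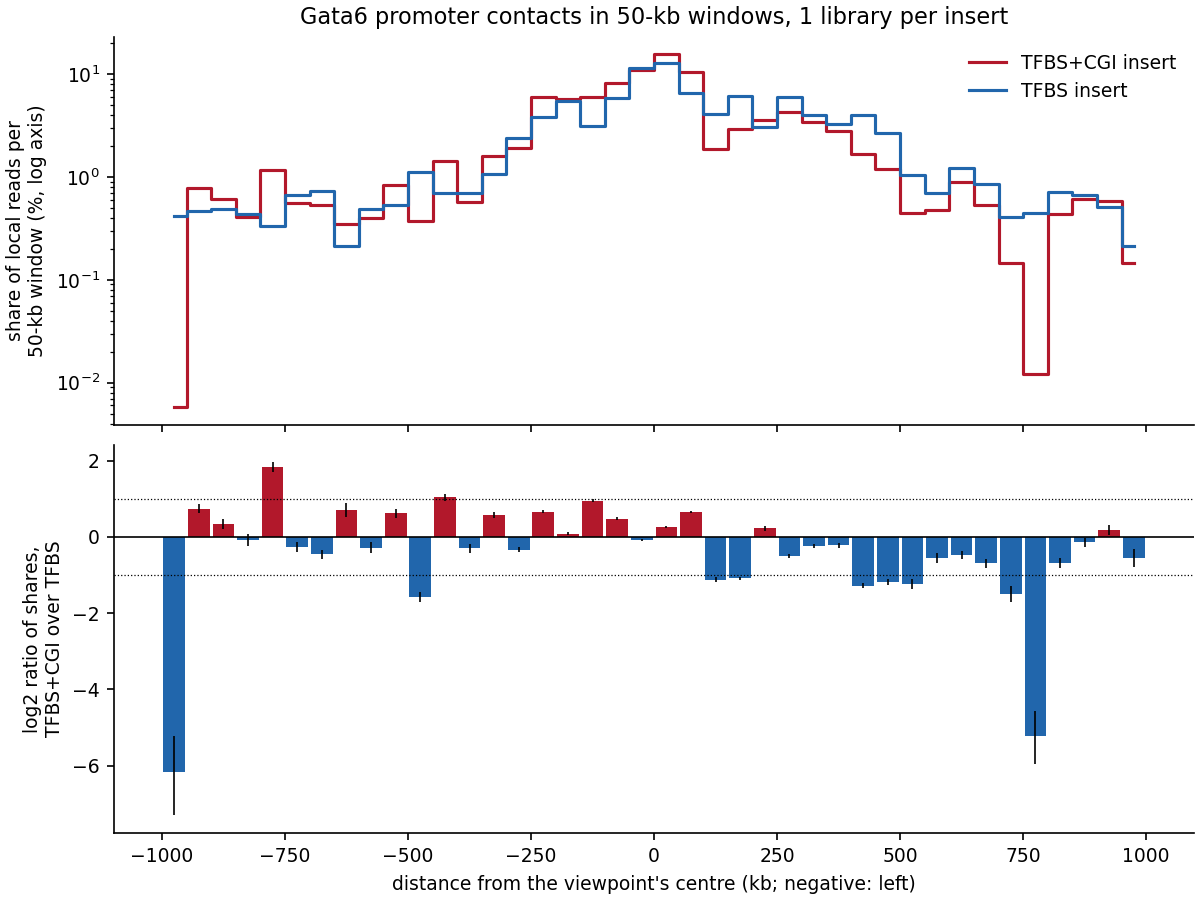
Upper panel: share of local reads in percent (y axis, log scale) per 50-kb window against distance from the viewpoint in kb (x axis), for the TFBS+CGI and TFBS libraries; the windows beside the viewpoint lack the 10 kb left out. Lower panel: log2 ratio of shares, TFBS+CGI over TFBS, with 95% intervals for counting error, and dotted lines at the 2-fold limits. On the right 16 of 20 windows lie below 0, and on the left 11 of 20 lie above it.

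The windows with the highest ratios lay on the left. From -800 to -750 kb, where the annotation has no protein-coding gene, the TFBS+CGI library had 1838 reads and the TFBS library 644, both on 12 fragments, for a log2 ratio of 1.82 (1.69 to 1.95). The WT library had 0.0153% of its local reads there and the CGI library 0.555%. From -450 to -400 kb, over the ends of Esco1 and Abhd3 and over Snrpd1, the shares were 1.43% and 0.700%, a log2 ratio of 1.03 (0.94 to 1.13). From -150 to -100 kb, over the predicted gene Gm35814 and without a protein-coding gene, they were 5.99% and 3.10%, a log2 ratio of 0.95 (0.90 to 0.99), just outside the 2-fold limit. This last window was the broadest of the 3 in its support, with 73 and 87 fragments and 6.16% of its TFBS+CGI reads on the tallest of them.

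The lowest ratios came from windows that the TFBS+CGI library hardly read. From -1000 to -950 kb, in Rock1, it had 9 reads and the TFBS library 798, and from 750 to 800 kb, at the edge of Cables1, it had 19 reads and the TFBS library 871. The log2 ratios there were -6.16 (-7.30 to -5.23) and -5.21 (-5.95 to -4.56). From -500 to -450 kb, over Greb1l and Esco1, it had 583 reads against 2153, and 73.6% of the 583 lay on 1 fragment. The 9 and 19 reads lay on 5 and 9 fragments, where the TFBS library read 16 and 24.

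In windows of 10 kb the libraries were further apart. Of 177 windows with at least 100 reads, 30 (16.9%) were 2-fold higher and 63 (35.6%) 2-fold lower in the TFBS+CGI library. The split differed by side: 21 of 87 left windows were higher (24.1%) and 25 lower (28.7%), while 9 of 90 right windows were higher (10%) and 38 lower (42.2%). Between other pairs of the 4 libraries 59.2% to 69.0% of windows were 2-fold apart, so the 52.5% of this pair was the lowest of the 6. The 5 highest windows rested on few reads in the TFBS library, between 1 and 10, and in 4 of them between 98.3% and 100% of the TFBS+CGI reads lay on 1 fragment. The highest, from -730 to -720 kb in Greb1l, had 390 reads against 1 (log2 ratio 8.92, 6.43 to 14.2). The 5 lowest windows had 1 to 3 reads in the TFBS+CGI library, the lowest from -690 to -680 kb, also in Greb1l, with 1 read against 385. Neighbouring stretches of 1 gene thus stood at both ends of the list. A further 8 windows were read in 1 library only, 7 of them in the TFBS library, among them 5 over Rock1. Just inside the limit lay the window from -90 to -80 kb, at a log2 ratio of 1.06, and that from 280 to 290 kb, at -1.02. Just outside it lay the windows from 620 to 630 kb and from 940 to 950 kb, at 0.96 and 0.95.

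The tallest local fragment of the TFBS+CGI library lay 94.9 kb right of the viewpoint, beyond the end of Gata6, at chr18:11148213-11148862. It carried 2970 reads, 1.90% of local reads, against 332 reads (0.172%, rank 99) in the TFBS library, a log2 ratio of 3.47 (3.31 to 3.64). The WT library had 2 reads on it and the CGI library 26. Its neighbourhood was not raised to a like degree. Without that fragment, the 5 kb on each side of it held 0.974% of local reads in the TFBS+CGI library and 1.28% in the TFBS library, and the 25 kb on each side held 7.37% and 6.09%. The other 4 of the 5 tallest were at 17.9 kb (1965 reads against 537), 15.6 kb (1843 against 598), 14.9 kb (1491 against 415) and -35.2 kb (1370 against 239). All 5 were thus read in the TFBS library, and on these 5 the WT library had 2 to 716 reads.

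The 5 tallest fragments of the TFBS library all lay within 40 kb of the viewpoint. They were at 11.6 kb (1680 reads against 865 in the TFBS+CGI library), 10.2 kb (1243 against 11), -37.7 kb (1128 against 237), -39.8 kb (1020 against 525) and -29.1 kb (898 against 842). The last of these was the only one with a higher share in the TFBS+CGI library, 0.540% against 0.465%. The fragment at 10.2 kb stood apart at a log2 ratio of -6.51 (-7.52 to -5.67), with 6 reads in WT and 620 in CGI. Of the 100 tallest fragments of each library, 23 were shared, and of the 50 tallest 7 were shared.

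**Figure D4:**
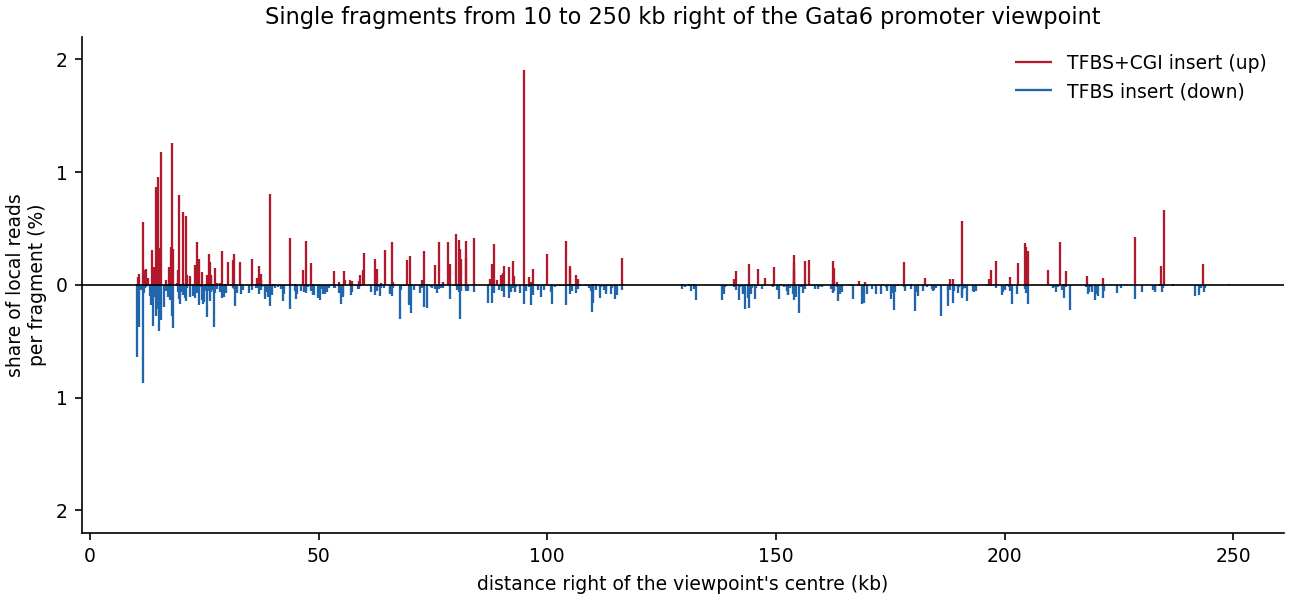
Share of local reads in percent on each fragment (y axis), drawn upward for the TFBS+CGI library and downward for the TFBS library, against distance to the right of the viewpoint in kb (x axis), 1 line per fragment. The tallest line is the TFBS+CGI fragment at 94.9 kb with 1.90% of local reads, and the TFBS lines are lower and more closely spaced.

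Gene spans were cut to the range of local reads, so Gata6 (10 to 37.0 kb) and Tmem241 (921 to 1000 kb) were measured in part. Within that range, the 10 protein-coding genes were each measured from 5 kb before to 5 kb after their annotated span. Relative to local reads, 3 had a higher share in the TFBS+CGI library and 7 a lower one, where 41.8% of the 177 windows of 10 kb were higher and 58.2% lower, and 1 gene was 2-fold lower, where 35.6% of the windows were; 0 of the 10 genes were higher when the deposited RPM (reads scaled to the library's total) were compared, which moves every log2 ratio by -1.62. The median log2 ratio of the genes was -0.13 and that of the 177 windows -0.31. Windows that touch a protein-coding gene held 27.0% and 25.6% of local reads. Windows without one held 38.9% against 30.5% on the left and 34.1% against 43.9% on the right, so the difference between the sides lay mainly in sequence without protein-coding genes. The stretch of 547.64 kb between Gata6 and Rbbp8, which holds no protein-coding gene, had 35.5% in the TFBS+CGI library and 44.1% in the TFBS library, with 29.2% in WT and 44.1% in CGI.

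The remainder of Gata6 itself with its flank, from 10 to 37.0 kb on the right, was the gene with most signal per length, 764 and 757 reads per kb. Its share was 13.2% in the TFBS+CGI library and 10.6% in the TFBS library, a log2 ratio of 0.32 (0.29 to 0.35), with 13.6% in WT and 10.6% in CGI. Of the 53 well-read fragments of Gata6 in the TFBS+CGI library, 50 were among the 95 of the TFBS library. That was near the overlap of all fragments at that distance and side. From 10 to 50 kb on the right, 57 of 63 well-read TFBS+CGI fragments (90.5%) were well read in both. On the 50 fragments alone the log2 ratio of Gata6 was 0.89 relative to all local reads. It was -0.31 relative to the reads on the 287 fragments well read in both, a scale that moves every log2 ratio by -1.21.

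Outside Gata6 the genes shared few well-read fragments between the libraries, as did all fragments at such distances. Of all well-read TFBS+CGI fragments on the left, 25.9% from 200 to 400 kb were well read in both libraries. From 400 to 700 kb on the left it was 10.3%, and from 700 to 1000 kb 12.5%. On the right it was 37.8% from 400 to 700 kb and 18.8% from 700 to 1000 kb. Left of the viewpoint, Abhd3, a phospholipase of the alpha/beta hydrolase family, held 1.47% and 0.883% (log2 ratio 0.74, 0.65 to 0.83), with 13 well-read fragments in the TFBS+CGI library and 18 in the TFBS library, of which 0 were shared. Mib1, a ubiquitin ligase that lets Notch ligands signal, held 3.63% and 4.22% (log2 ratio -0.22, -0.27 to -0.17), on 22 and 90 well-read fragments with 5 shared. Esco1, an acetyltransferase of cohesin, was the gene 2-fold lower, with 739 reads against 2158 and a log2 ratio of -1.24 (-1.36 to -1.12). In the TFBS+CGI library 58.1% of those reads lay on 1 fragment, and on the single fragment well read in both the reads were 143 and 18. Snrpd1, a core protein of spliceosomal small nuclear ribonucleoproteins, had 670 and 861 reads, with 2 well-read fragments in the TFBS+CGI library against 13, and its log2 ratio of -0.053 (-0.20 to 0.094) had an interval that included 0. Greb1l held 2.47% and 2.67% (log2 ratio -0.11). Rock1, a kinase of the actomyosin cytoskeleton, held 1.01% and 1.11% (log2 ratio -0.15), on 5 and 29 well-read fragments with 0 shared.

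To the right, Rbbp8, which encodes the DNA end resection factor CtIP, held 1.58% and 2.29% (log2 ratio -0.54, -0.61 to -0.47). Cables1, a Cdk5 and Abl enzyme substrate, held 1.05% and 1.47% (log2 ratio -0.48, -0.57 to -0.39). Rbbp8 had 12 well-read fragments against 57, Cables1 7 against 37, and 1 was shared in each. Tmem241, a predicted transporter at the far edge of the range, held 0.614% and 0.598% (log2 ratio 0.038, -0.087 to 0.16). Summed over the 10 spans, which overlap in places, the TFBS+CGI library had 142 well-read fragments and the TFBS library 445, or 31.9 per 100, near the 31.8 per 100 of the whole range, and the genes ran from 15.4 per 100 in Snrpd1 to 72.2 in Abhd3.

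**Figure D5:**
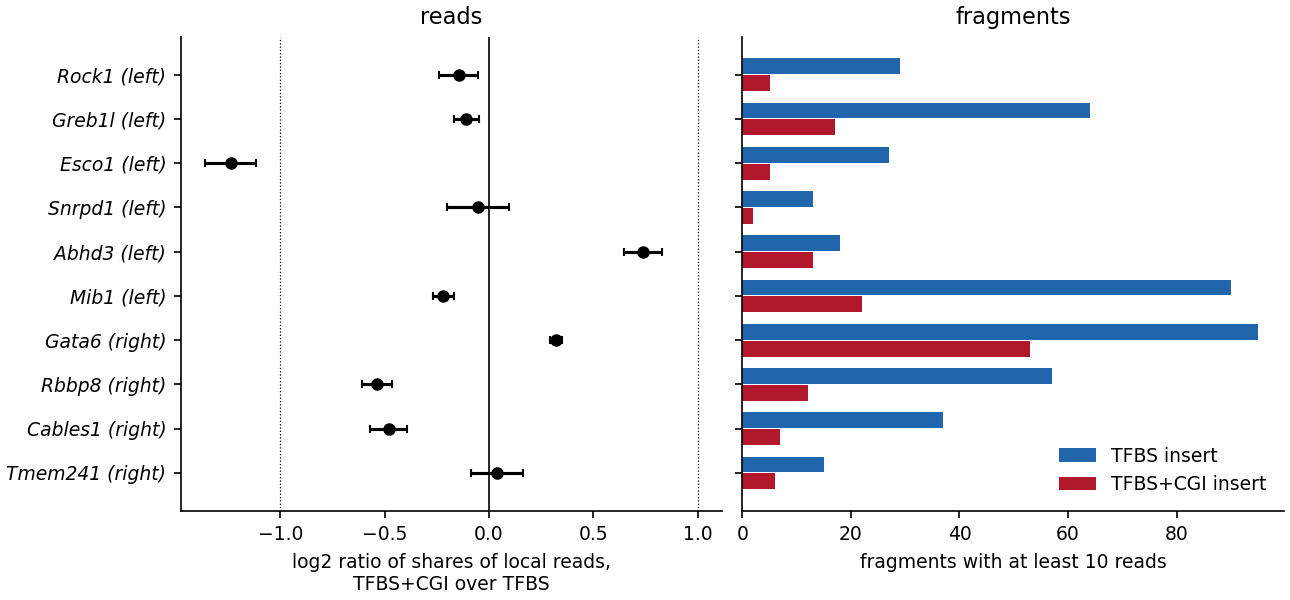
Left panel: log2 ratio of shares of local reads, TFBS+CGI over TFBS (x axis), for the 10 protein-coding genes within range in genomic order (y axis), with 95% intervals for counting error and dotted lines at the 2-fold limits; on deposited RPM all 10 points lie below 0. Right panel: fragments with at least 10 reads over each gene (x axis) in both libraries, with 53 against 95 in Gata6 and 2 against 13 in Snrpd1.

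The inserted TFBS is a copy of sequence near Sox1 on chromosome 8, so reads from the insert would map there. In both libraries all reads within 60 kb of the start of Sox1 fell on 1 fragment, chr8:12429908-12430215, 34.5 kb past that start. It had 845 reads in the TFBS+CGI library, the tallest of 706 fragments on that chromosome, and 175 reads in the TFBS library, where it was rank 13. Among all fragments off chromosome 18 it was rank 22 of 12759 in the TFBS+CGI library and rank 220 of 14169 in the TFBS library. The 845 and 175 reads were 4.31% (4.03 to 4.60) and 1.16% (1.00 to 1.34) of the reads on chromosome 8. The WT library had 1 read on this fragment and the CGI library 5, so both lines with the TFBS stood above the lines without it. Contact of the promoter with the insert and with the native Sox1 region cannot be told apart from these reads. The difference between the inserts rests on 1 fragment in 1 library each.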

How the data were processed

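Each of the 4 Gata6 promoter AntNPC libraries lists fragments and their RPM (reads scaled to the library's total), the unit the authors deposited. Chromatin was cut with NlaIII and then DpnII, per the labels' protocols. The submitters' processing notes name HISAT2 and the build mm10; neither its version nor any read filter is given there. The header inside the TFBS+CGI table names it PE; the table was assigned by the sample it was deposited under. All values were whole multiples of the library's smallest (100% within a tolerance of 0.1), so reads were recovered by division. A count test on them was not run, since each group has 1 library.

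Local reads, windows, distance steps and gene spans were summed with Python 3.11.15 and numpy 2.4.6. Shares have Wilson intervals, differences Newcombe intervals and log2 ratios exact conditional intervals (scipy 1.17.1). Depth was matched by expected counts under random drawing. Where 1 library had no read, the log2 ratio was taken against a floor of 3 reads. The code that calls windows was tested on simulated data. Gene spans, without strand, are those of RefSeq on GRCm38.p6 (mm10). The text names all protein-coding genes in range, the 5 highest and lowest 10-kb and 3 highest and lowest 50-kb windows, the 5 tallest fragments of each library, and windows nearest the 2-fold limit. Libraries, lists and rules were chosen with earlier results of these data known. The alternatives restricted to fragments with at least 10 reads in both libraries, and without the tallest TFBS+CGI fragment, and the counts of well-read fragments, were added after the data were seen. The ESC libraries of this viewpoint were not used here. No sequence is printed.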

Additional observations from a re-analysis of the deposited data

Results flagged for a closer look

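The CGI insert and WT form a second pair of libraries, which shares no library with the pair described above. It sets the CGI alone against no insert, where the first sets the CGI beside the TFBS against the TFBS, so the manipulations are not the same. Of 13 shares of local reads compared (the left side as a whole and 6 distance steps on each side), 9 differed the opposite way in the second pair, 5 of them by at least 2 percentage points in both pairs. The left side as a whole holds the 6 left steps, so the 13 shares are not independent. The difference was not tested, with 1 library in each of the 4 groups. In total reads TFBS+CGI (7429563) was near WT (6874974), and TFBS (3000576) near CGI (2523331). Whether the opposite signs go with total reads was not tested. On the left as a whole, TFBS+CGI minus TFBS was 7.83 points and CGI minus WT was -8.99 points. From 10 to 50 kb on the right the values were 2.65 and -2.14 points. From 100 to 200 kb on the right they were -5.50 and 2.57 points, from 200 to 400 kb -2.38 and 5.79 points, and from 400 to 700 kb -5.37 and 4.13 points. Over wider ranges the values were 8.08 and -5.91 points from 10 to 100 kb, and -14.3 and 9.80 points from 100 to 1000 kb on the right. From 50 to 100 kb on the right both pairs had the same sign, 3.80 and 1.33 points. In the 40 windows of 50 kb, 15 had the same sign in both pairs.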

How the results depend on the processing

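No paired analysis was possible because each insert has 1 library; for the same reason nothing here is measured against replicate error. With only fragments of at least 10 reads in both libraries (chosen after the data were seen) and shares of the reads on those fragments, a scale that moves every log2 ratio by -1.21, the left share difference was 0.308 points, the 10 to 100 kb difference -4.82, the right 100 to 1000 kb difference 1.13 and the slope difference 0.086, the log2 ratio of Esco1 was 2.09 (1 fragment), 5 genes were higher, 19 and 6 of 73 windows of 10 kb were 2-fold higher and lower, and 4 and 1 of 25 windows of 50 kb. Both libraries have the same fragments on that setting, so a difference in fragment number cannot show there. The cause was not tested. On deposited RPM, 8 windows of 10 kb were higher and 128 lower, 0 and 32 of 50 kb, and 0 genes were higher. Counting fragments in place of reads gave 11 and 26 windows of 10 kb and 0 and 2 of 50 kb. A range of 500 kb, with fewer windows, gave 14 and 25, and 1 and 5. A minimum of 500 reads gave 19 and 26, and windows of 20 kb gave 14 and 32. Without the tallest fragment of each window, 96 windows of 10 kb and 14 of 50 kb were lower. The left share difference (7.83 points) was 6.59 with shares of chromosome reads, 11.5 with 25 kb left out, 6.99 within 500 kb, 9.25 with capped values, 8.38 without each window's tallest fragment, 5.31 by fragments and 8.77 without the tallest TFBS+CGI fragment. In that order, leaving out the 500 kb range, the 10 to 100 kb difference was 6.68, 8.56, 7.59, 10.5, 5.58 and 7.01. That from 100 to 1000 kb on the right was -9.38 with shares of chromosome reads, -16.0 with 25 kb left out, -13.7 within 500 kb, -15.9 without each window's tallest fragment, -7.97 by fragments and -13.8 without the tallest TFBS+CGI fragment. At matched depth the TFBS library had 2.83 times the fragments with at least 5 reads, against 1.57 times with at least 1. In all, 45 recomputed main values moved, 2 reversed and 45 stayed within 1.5 times (counts) or within counting error. Of the other values, 72 moved, 2 reversed (Esco1 and the slope difference) and 87 stayed. They are single genes and steps, the slope difference, the windows of the longest runs and the correlation of 10-kb windows. That correlation (0.73, and 0.75 with windows of 20 kb) and the fragment ratio at matched depth were counted as moved without applying a limit. A gene with a changed sign counted as reversed only if its reported log2 ratio was past 1 either way. Greb1l kept its sign in 9 of 12 settings, Gata6 in 10 of 12 and Tmem241 in 8 of 11. Esco1, Snrpd1 and Mib1 kept it in 11 of 12, and Abhd3 and Cables1 in 10 of 11. Rock1 kept it in 10 of 10 and Rbbp8 in 11 of 11. These counts include the deposited RPM, which moves every log2 ratio by -1.62 and so keeps a negative sign. Without that setting Rock1 kept its sign in 9 of 9, Rbbp8 and Abhd3 in 10 of 10 and Cables1 in 9 of 10. Gata6, Esco1, Snrpd1 and Mib1 kept it in 10 of 11, Greb1l in 8 of 11 and Tmem241 in 8 of 10. For Rock1 without flank the log2 ratio was -0.00037. A slope with 25 kb left out was not run.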
